A study of Mus musculus with 60 samples.

Results

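Among the cortex-like samples of a mouse brain RNA-Seq series, the 8 with the highest and the 8 with the lowest level of Fos were set side by side. Samples were taken as cortex-like when the FPKM of Slc17a7, the vesicular glutamate transporter of cortical excitatory neurons, was above 100, which held for 30 of the 60 samples of the series. They were then ranked by Fos, so the 16 samples were selected on a measured value and the contrast between them is a description with no test. The other 14 cortex-like samples lay between the 2 groups in Fos, and the 30 remaining samples of the series were striatum-like.

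The samples came from c57BL-6N mice aged 3 months. Those that were cortex-like were labelled +/+ (12 samples) or Δ12/+ (12 samples) of the HTT Δ12 line, or male Δ12/Δ12 (6 samples), where Δ12 is a knock-in deletion within exon 12 of Htt and no sample carried another transgene or treatment by its label. The KO allele of the other line, the KO line, derives from a single founder with an imprecise deletion. All samples of the KO line, labelled +/+ or KO/+, and all female Δ12/Δ12 samples were striatum-like. Labelled tissue did not follow this division, since 15 of the 30 cortex-like samples were labelled cortex and 15 striatum.

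Neurons that fire admit calcium, and calcium-dependent kinases then act on factors already bound to DNA, such as CREB and SRF, to switch on immediate early genes within minutes. Some of these genes encode transcription factors (Fos, Egr1, Npas4, Nr4a1), others encode effectors that act at the synapse or on signalling (Arc, Homer1, the Dusp phosphatases), and a later wave encodes secreted and synaptic proteins such as Bdnf. Resting brain tissue holds them at levels that differ between genes and vary with recent experience.

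Promoters of 5 of these genes are shown because CREB acts through a short DNA element, the cyclic AMP response element, that many activity-dependent promoters hold. They are RefSeq sequences of GRCm38.p6, each of 300 bases and given 5′ to 3′ on the strand of the gene: Fos at chr12:85473640-85473939 (+), Nr4a1 at chr15:101266596-101266895 (+), Junb at chr8:84978699-84978998 (-), Btg2 at chr1:134079106-134079405 (-) and Npas4 at chr19:4989922-4990221 (-). Capitals mark the element's letters TGACGTCA and its short form TGACG, searched on both strands, so that the short form on the opposite strand reads CGTCA. Each full element also holds the short form.
Fos: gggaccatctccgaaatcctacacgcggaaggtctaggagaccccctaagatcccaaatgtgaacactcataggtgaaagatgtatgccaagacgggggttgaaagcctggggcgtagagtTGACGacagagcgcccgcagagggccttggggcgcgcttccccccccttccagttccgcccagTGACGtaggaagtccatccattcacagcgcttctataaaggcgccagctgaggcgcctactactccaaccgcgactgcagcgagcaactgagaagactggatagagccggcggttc
Nr4a1: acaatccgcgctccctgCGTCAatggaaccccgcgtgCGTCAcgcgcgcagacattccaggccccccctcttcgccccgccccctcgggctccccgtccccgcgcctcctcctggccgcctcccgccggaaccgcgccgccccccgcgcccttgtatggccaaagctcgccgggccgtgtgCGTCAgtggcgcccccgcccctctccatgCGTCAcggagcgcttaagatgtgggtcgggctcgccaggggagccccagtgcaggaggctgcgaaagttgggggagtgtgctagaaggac
Junb: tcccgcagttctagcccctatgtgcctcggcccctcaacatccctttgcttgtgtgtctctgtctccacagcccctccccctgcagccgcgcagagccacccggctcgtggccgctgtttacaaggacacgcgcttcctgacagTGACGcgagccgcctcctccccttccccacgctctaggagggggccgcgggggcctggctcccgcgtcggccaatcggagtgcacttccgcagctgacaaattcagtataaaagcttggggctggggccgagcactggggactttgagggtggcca
Btg2: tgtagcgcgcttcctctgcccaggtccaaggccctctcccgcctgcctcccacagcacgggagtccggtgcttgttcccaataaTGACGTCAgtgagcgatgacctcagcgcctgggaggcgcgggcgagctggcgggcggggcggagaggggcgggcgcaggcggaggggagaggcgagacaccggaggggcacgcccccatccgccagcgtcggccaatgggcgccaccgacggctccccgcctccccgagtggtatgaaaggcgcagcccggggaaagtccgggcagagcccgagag
Npas4: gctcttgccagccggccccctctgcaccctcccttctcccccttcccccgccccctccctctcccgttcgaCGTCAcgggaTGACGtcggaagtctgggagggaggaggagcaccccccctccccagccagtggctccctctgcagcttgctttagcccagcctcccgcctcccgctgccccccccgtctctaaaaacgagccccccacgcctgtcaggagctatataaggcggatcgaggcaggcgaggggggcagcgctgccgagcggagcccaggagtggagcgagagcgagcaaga

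The short form TGACG was found in all 5 promoters, 4 times in that of Nr4a1, and the full element TGACGTCA was found only in that of Btg2 among the 5. Of the immediate early transcription factors with a promoter in the table, 17 of 22 (77.3%) held the short form, as did 15 of 23 immediate early effectors (65.2%) and 7 of 13 late response genes (53.8%). The background was 20.8% of all 32851 promoters, and 35.8% of the 10038 genes measured in the cortex-like samples. The full element was in 2 of the 22 factors, 5 of the 23 effectors and 3 of the 13 late response genes, against 1.79% of all promoters and 3.68% of the measured genes. A match is a stretch of letters and does not show that a factor binds there.

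Depth, estimated from the interval bounds in the tables, in units of 1000000 fragments, was 12.8 to 27.5 per sample, with 13.1 to 16.5 in the low-Fos and 12.9 to 19.5 in the high-Fos samples. The labels were contradicted in part, because the sex-linked transcripts Xist and Ddx3y matched the labelled sex in 13 of the 30 cortex-like samples, and only 8 of the 15 mice labelled with 2 such samples showed the same sex in both. The 30 samples were therefore treated as separate animals, which the data do not establish, and p-values measure the spread between samples. In 2 high-Fos samples the markers stood apart from the rest: the sample labelled striatum Δ12-line Δ12/+ male 3 held Drd2 at 15.9 and Ttr at 364 scaled FPKM, and the one labelled cortex Δ12-line +/+ female 1 held Neurod1 and Drd2 at 0 and Dcn at 0.922, where the lowest of the other cortex-like samples were 0.851, 0.185 and 2.53. Long genes were higher relative to short ones in the striatum-like samples, with a long-minus-short log2 index of 1.20 to 1.42, than in the cortex-like samples, at -0.23 to 0.31, so levels of activity-dependent genes were not compared between the regions.

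Slc17a7 lay between 104 and 197 scaled FPKM in the cortex-like samples and between 5.60 and 69.6 in the striatum-like samples. Drd2, the dopamine receptor of indirect-pathway striatal neurons, had a median of 0.809 scaled FPKM in the former and 50.2 in the latter. The highest Drd2 of a cortex-like sample, 15.9, lay below the lowest of a striatum-like sample, 34.8. Slc17a7 defined the regions, so of these markers only Drd2 is a check on them, and the difference in the long-minus-short index cannot be told apart from region. In bulk tissue, fewer cells of a type and less RNA per cell cannot be told apart.

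Scaled FPKM of Fos, the FPKM divided by a median-of-ratios factor, ran from 2.13 over a median of 3.66 to 4.16 in the low-Fos samples and from 7.04 over 8.06 to 8.64 in the high-Fos samples. The 2 groups are separate by construction, with a ratio of means of 2.28. The last sample inside the low group held 4.16 and the first outside it 4.17, whereas the last inside the high group held 7.04 and the first outside it 7.00. By the interval bounds, read as counting error only, the FPKM of Fos corresponded to 30.0 to 226 fragments per sample. This gives a counting error of 18.3% at the fewest and 6.66% at the most. The gap between the last sample inside and the first outside each group was smaller than this error.

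Across 15231 genes other than Fos with a mean of at least 0.5 scaled FPKM, no gene separated the groups: 0 genes (0%) had all 8 high-Fos samples above all 8 low-Fos samples, and 0 genes (0%) had all below. Among 12715 protein-coding genes, a difference of mean log2(scaled FPKM + 0.5) of at least 0.5 was found in 107 genes (0.842%) in the direction of higher levels with high Fos and in 110 genes (0.865%) in the opposite direction. The median difference over all genes was -0.01, and 47.5% of genes were higher. Every log2 difference below uses the same scale, on which changes of genes near the pseudocount appear smaller than they are.

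Of the 28 immediate early transcription factors other than Fos, 25 passed the filter on low values. In the high-Fos samples 20 of these 25 were higher on average and 5 lower, with a median difference of 0.18, and 2 of the 25 reached 0.5, against the 0.842% of protein-coding genes given above. These counts belong to genes that share the contrast with the rule and carry no test.

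Nr4a1, an orphan nuclear receptor, led the factors. It ran from 4.31 over a median of 6.72 to 12.8 scaled FPKM with low Fos and from 7.36 over 13.2 to 16.7 with high Fos, a difference of 0.69. The groups overlapped, but all 8 high-Fos samples lay above the median of the low-Fos samples and 5 lay above their maximum. Btg2, an antiproliferative cofactor of transcription, ran from 1.54 over 2.38 to 4.27 and from 2.12 over 4.55 to 5.76, a difference of 0.52 in which 5 of the 8 high-Fos samples exceeded every low-Fos sample. Junb, a partner of Fos in the AP-1 dimer, ran from 17.9 over 27.9 to 35.8 and from 24.5 over 36.3 to 45.9, a difference of 0.48 with 4 samples above. In these 3 genes the highest low-Fos samples lay above the lowest high-Fos samples.

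Egr1, a zinc finger factor widely used as a mark of activity, ran from 6.49 over 9.29 to 11.4 scaled FPKM with low Fos and from 9.00 over 10.6 to 17.6 with high Fos. Its difference was 0.33 and 3 of the 8 high-Fos samples lay above the low-Fos maximum. Npas4, which responds almost only to calcium entry in neurons, ran from 1.75 over 3.27 to 4.45 and from 1.81 over 3.88 to 6.60, so the groups overlapped over most of their range and the difference was 0.18. Without 1 sample this difference ranged from 0.08, on leaving out the one labelled cortex Δ12-line +/+ female 3 or striatum Δ12-line +/+ male 3, to 0.31, without striatum Δ12-line Δ12/+ female 3. Fosb, the closest relative of Fos among the list, differed by 0.08 and Egr3 by 0.00. Klf10 differed by 0.38, Csrnp1 by 0.37, Fosl2 by 0.34, Egr4 and Ier2 by 0.30 and Jun by 0.26, while Crem, which encodes inducible repressors, differed by -0.23.

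**Figure D1:**
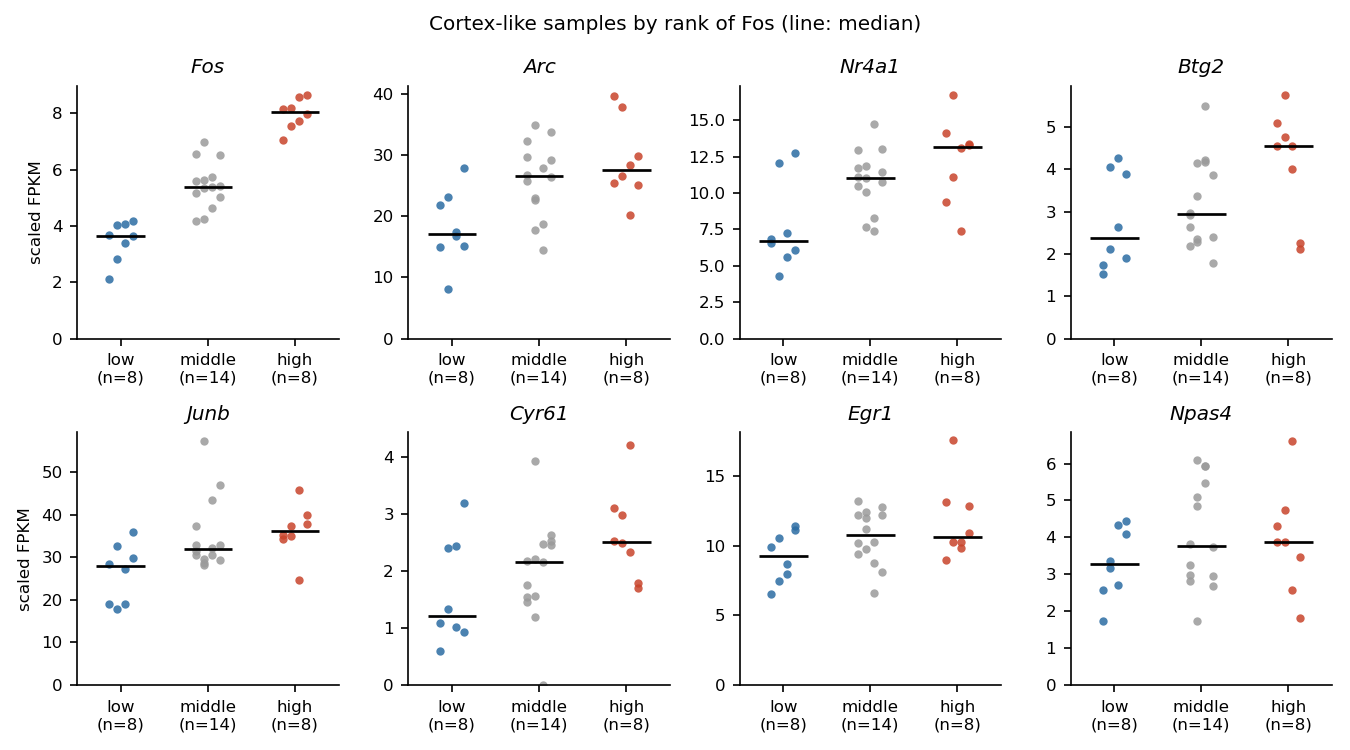
Scaled FPKM (y axis, linear from 0) of Fos and 7 immediate early genes in the 8 low-Fos, 14 middle and 8 high-Fos cortex-like samples; each point is a sample and each line a median. Only Fos, which chose the groups, is without overlap, and the medians of Nr4a1 go from 6.72 to 13.2 while those of Npas4 go from 3.27 to 3.88.

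Of the 28 immediate early effectors 27 were measured, and 21 of them were higher and 6 lower with high Fos, where 47.5% of all genes were higher. Their median difference was 0.10, and 3 reached 0.5 or more, against 0.842% of protein-coding genes and 301 of all 15231 genes. This median ranged from 0.05, without the sample labelled striatum Δ12-line Δ12/+ male 1, to 0.15, without striatum Δ12-line +/+ female 1. Arc, which encodes a capsid-like protein of the postsynapse, showed the largest difference of any listed immediate early gene. It ran from 8.12 over 17.0 to 27.9 scaled FPKM with low Fos and from 20.1 over 27.5 to 39.7 with high Fos, a difference of 0.71. All 8 high-Fos samples lay above the low-Fos median and 4 above the low-Fos maximum.

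Cyr61, a secreted matrix protein induced by serum and by stretch, ran from 0.593 over 1.21 to 3.19 and from 1.70 over 2.51 to 4.22, a difference of 0.64. Sik1, a kinase that restrains CREB coactivators, ran from 0.252 over 0.333 to 1.01 and from 0.534 over 0.768 to 1.63, a difference of 0.57. Both genes were low, and in both the groups overlapped. Dusp1, a phosphatase of MAP kinases, ran from 6.23 over 9.98 to 13.6 and from 10.7 over 13.1 to 19.7, a difference of 0.45. Gadd45b, a stress and demethylation factor, differed by 0.40, of which 1 sample at 32.7 held a large part, since the next highest was 16.1 and the difference without it was 0.20. Homer1, a postsynaptic scaffold, differed by 0.07 and Plk2, a kinase of synaptic scaling, by -0.13.

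Late response genes were close to evenly divided, with 10 of 18 measured genes higher and a median difference of 0.01. Bdnf, the neurotrophin that is the textbook late target, ran from 2.96 over 3.90 to 5.49 scaled FPKM with low Fos and from 2.01 over 4.17 to 6.21 with high Fos, a difference of 0.03. The groups covered nearly the same range. Inhba, a subunit of activin, showed the largest difference of the list at 0.29, with 6 of the 8 high-Fos samples above every low-Fos sample, and Npy, a neuropeptide of interneurons, followed at 0.28.

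Lists of genes that act upstream differed in their medians. Of 29 genes for calcium channels, glutamate receptors, calmodulins and their kinases, 15 were higher, with a median of 0.0034, and the range went from -0.25 for Calm2 to 0.19 for Cacna1d. The 22 measured transcription factors that are present before stimulation had a median of 0.08, with 14 higher, close to the median of 0.10 of the immediate early effectors. Creb1 differed by 0.01, Srf by 0.15 and Crtc2, a CREB coactivator, by 0.26. Atf1 differed by 0.49, but its interval bounds were as wide as those of only 1 to 14 fragments per sample. Lists for other states of the tissue had medians of -0.03 for glucocorticoid targets, 0.0021 for clock genes and -0.03 for heat shock genes.

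**Figure D2:**
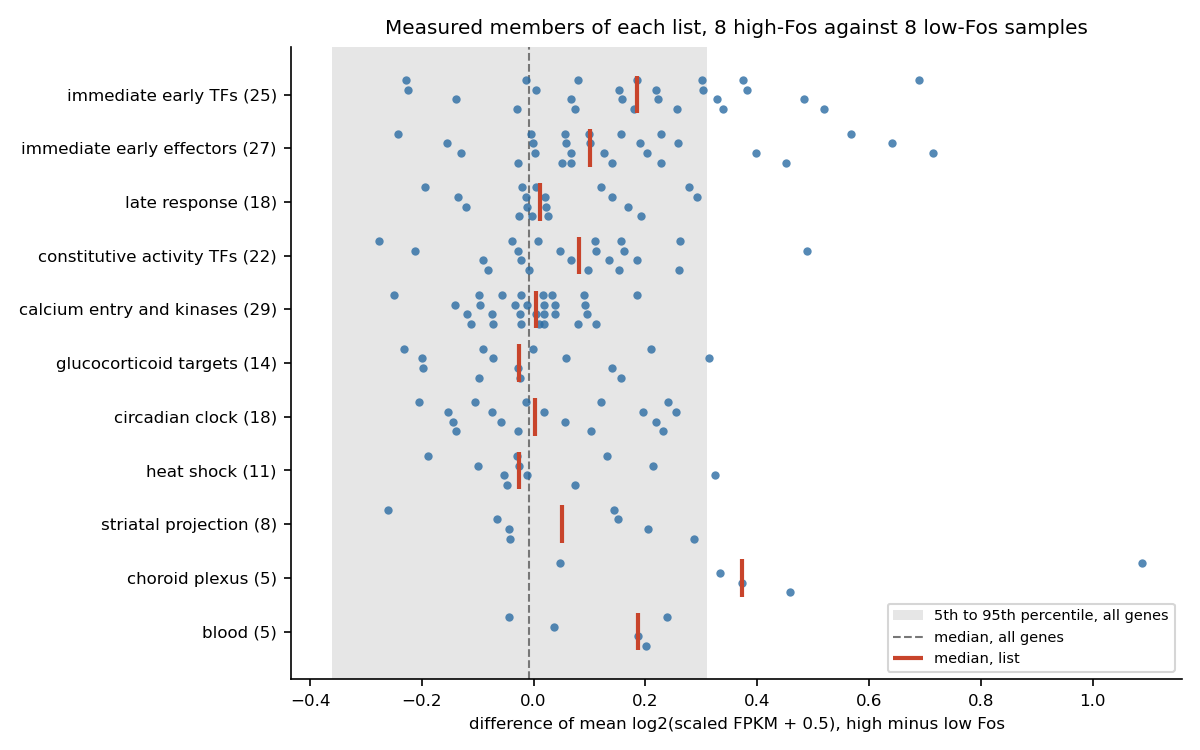
Difference of mean log2(scaled FPKM + 0.5) between the 8 high-Fos and 8 low-Fos samples (x axis) for each measured member (point) of 11 gene lists (y axis, number measured in parentheses), with list medians in red and the 5th to 95th percentile of all genes shaded. The median of the immediate early transcription factors, 0.18, lies right of the all-gene median of -0.01, as do those of the choroid plexus, 0.37, and blood lists, 0.19.

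Markers of some other cells and tissues differed between the groups. All 5 measured choroid plexus markers were higher with high Fos, with a median difference of 0.37, and their summed level ran from 38.0 to 118 scaled FPKM with low Fos and from 34.1 to 480 with high Fos. This median was 0.07 without the sample labelled striatum Δ12-line Δ12/+ male 3 alone. Without both samples that stood apart it was -0.04, while that of the immediate early transcription factors was 0.25 and that of the effectors 0.13. The 8 striatal projection markers had a median of 0.05, and their sum ran from 87.9 to 144 and from 74.3 to 435. Blood transcripts had a median of 0.19, with 4 of 5 higher. Cortical excitatory, layer, interneuron, hippocampal, glial, endothelial and leptomeningeal lists had medians between -0.09 and 0.06. The 10 entries with the highest FPKM held a median of 86.2% of the summed FPKM with low Fos and 70.2% with high Fos. The part of these measures in the differences was not tested.

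Leaving out the 2 samples also changed the count of genes without overlap, to 5 higher and 7 lower of 15231 genes. Only 6 high-Fos samples then remained against 8 low-Fos samples, and smaller groups separate more easily. Whether these counts exceed chance was not tested. The 5 higher genes were Egln3, Mrap2, Ppip5k1, Rfxank and Zfp516, none of them an immediate early gene, and the 7 lower included Adgrl4 and Cldn10. These names were chosen after their values were seen, as were the following genes outside the lists. Among protein-coding genes Gdf1 differed most, by 2.00. Pmch and Hcrt, neuropeptides of lateral hypothalamic neurons, differed by 1.66 and 0.84, and Th, the enzyme that begins dopamine synthesis, by 0.83. Cyb5rl, Nup160, Efcab6, Ecm1 and Ece1 also differed by more than Hcrt. In Nup160 and Ecm1 the highest high-Fos samples held 127 and 12.8 scaled FPKM, over high-Fos medians of 1.77 and 1.68. Ece1 ran from 2.02 to 237 scaled FPKM with high Fos, on a median of 2.63 implied fragments. In the opposite direction, Pagr1a differed most among protein-coding genes, by -1.49, followed by Efcab7 at -1.33 and Ovol2 at -1.08. Hcrt ran up to 8.60 scaled FPKM with low Fos and up to 12.4 with high Fos, where 1 sample lay above every low-Fos sample. Pmch ran up to 53.6 scaled FPKM with low Fos and up to 53.2 with high Fos, and 7 of the 8 high-Fos samples lay above the low-Fos median of 1.47.

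Composition of the groups differed by label. The low-Fos samples were labelled +/+ in 3, Δ12/+ in 4 and Δ12/Δ12 in 1, and the high-Fos samples in 2, 4 and 2. By label, 3 low-Fos and 5 high-Fos samples were female, and 3 and 5 were cortex. Within labelled cortex (3 low, 5 high) Arc differed by 0.77 and Nr4a1 by 0.83, and within labelled striatum (5 low, 3 high) by 0.70 and 0.66. Sorted by sex-linked transcripts instead, the differences were unequal: in samples with more Ddx3y than Xist (5 low, 4 high) Arc differed by 0.93, Btg2 by 0.89 and Cyr61 by 1.08, and in those with more Xist (3 low, 4 high) by 0.31, 0.07 and 0.04. Other genes were less unequal: in the same order Nr4a1 differed by 0.75 and 0.44, Junb by 0.54 and 0.29, Egr1 by 0.33 and 0.24 and Npas4 by 0.24 and 0.12. The median of the immediate early transcription factors was 0.25 in the former and 0.10 in the latter. Whether the 2 sets differ was not tested.

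Fos itself was then compared by label over the cortex-like samples, which does not use the ranking. Labelled Δ12/+ samples (n = 12) and +/+ samples (n = 12) differed by 0.02 (two-sided permutation test with 100000 resamples, p = 0.917, adjusted p = 0.917 over 4 comparisons). Samples labelled male Δ12/Δ12 exceeded those labelled male +/+ by 0.31 (n = 6 each), which did not pass the exact permutation test (two-sided p = 0.303, adjusted p = 0.404). Of these, 5 of the 6 Δ12/Δ12 and 4 of the 6 +/+ samples held more Xist than Ddx3y, against their labelled sex. Among samples labelled +/+ or Δ12/+, labelled females exceeded labelled males by 0.35 (n = 12 each, permutation test, p = 0.0654, adjusted p = 0.244). The male Δ12/Δ12 samples were left out of that comparison. Samples labelled striatum lay below those labelled cortex by 0.26 (n = 15 each, permutation test, p = 0.122, adjusted p = 0.244). No comparison of labelled groups passed the adjusted threshold.

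Genotype was tested across all genes with limma. Between labelled Δ12/+ and +/+ cortex-like samples, with labelled sex as a covariate, 0 of 15173 genes passed an adjusted p of 0.05 (0%), while 1007 genes were below 0.05 before adjustment. Of the 53 measured immediate early genes, Fos included, 26 were higher in Δ12/+, and Arc differed by -0.22 (95% interval -0.62 to 0.18). Between the samples labelled male Δ12/Δ12 and male +/+, limma called 0 of 15185 genes (0%), with 1709 below 0.05 before adjustment, and 37 of the 53 immediate early genes were higher, with a median of 0.10 on a typical 95% half-interval of 0.37. Egr1 differed by 0.31 (-0.07 to 0.69) and Npas4 by -0.34 (-0.91 to 0.22). In simulated data the test of Δ12/+ recovered 94 of 100 genes with a difference of 1 and 55 of 100 with 0.5. That of male Δ12/Δ12 recovered 76 and 15 of 100, so differences of 0.5 could be missed in both.

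In the 14 middle samples, which the contrast did not use, a limma trend on log2 Fos called 0 of 15147 genes (0%), with 473 at an unadjusted p under 0.05. Fos spans only 4.17 to 7.00 there, and in simulated data the test recovered 5 of 100 genes with a slope of 1, so little could be detected. Of the 52 measured immediate early genes, 33 had a positive slope, with a median of 0.08 per log2 unit of Fos and 0.01 over all genes. This median was 0.31 with Drd2 as a covariate, 0.38 without the 2 samples farthest in Fos and 0.20 with the replicate block, where that of all genes was 0.03, 0.01 and 0.03. Arc had a slope of 0.61 (-0.39 to 1.62) and Btg2 of -0.38 (-1.52 to 0.76). In the main fit the median slope was 0.33 for glucocorticoid targets, 0.30 for heat shock genes and 0.34 for leptomeningeal markers. It was -0.06 for late response genes, -0.10 for clock genes and -0.34 for oligodendrocyte markers. Positive medians were thus not particular to the immediate early genes.

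The 30 striatum-like samples were a second set that the rule did not use, and Fos ran there from 2.04 over a median of 6.78 to 13.5 scaled FPKM. Of 15958 genes tested with limma, 2 rose with Fos at an adjusted p under 0.05 (0.0125%) and 0 fell. These were Btg2, with a slope of 0.47 ± 0.07 (SE) per log2 unit of Fos (adjusted p = 0.0116), and 1700016P03Rik, with 0.65 ± 0.12 (SE, adjusted p = 0.0356). In simulated data the test recovered 100 of 100 genes with a slope of 1 and 97 of 100 with 0.5. Those genes were drawn without the most variable ones, and their noise was independent between genes. The recovery therefore need not hold for more variable genes of the real data. With 1 sample left out in turn, limma kept the call for Btg2 in 29 of 30 fits and lost it without the sample labelled cortex KO-line KO/+ male 3, at a slope of 0.44 and an adjusted p of 0.11. It was kept without the 2 samples farthest in Fos (slope 0.54, adjusted p = 0.0413) and lost with the replicate number as a block (slope 0.41, adjusted p = 0.179). The call for 1700016P03Rik was kept in 17 of the 30 fits and lost in 13, with an adjusted p from limma of up to 0.305, without the sample labelled striatum Δ12-line Δ12/Δ12 female 3. It was also lost with FPKM as deposited, a pseudocount of 0.1, no filter, the block, and without the 2 samples farthest in Fos.

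Slopes of the immediate early genes on Fos were mostly positive. Of 51 measured, 48 had a positive slope, with a median of 0.19, whereas 45.5% of all genes did, with a median of -0.01. All 25 measured transcription factors and 23 of 26 effectors were positive, as were 14 of 17 late response genes at a median of 0.07, and 5 of 29 calcium entry and kinase genes at a median of -0.05. At an unadjusted p under 0.05, 27 immediate early genes were positive and 0 negative, beside 523 positive and 619 negative of all 15958 genes. The steepest were Egr2 at 0.52 (95% interval 0.27 to 0.78), Arc at 0.51 (0.31 to 0.72), Nr4a2 at 0.49 (-0.21 to 1.19) and Npas4 at 0.47 (0.23 to 0.71), none of which passed the adjusted threshold. Arc, Dusp1 and Gadd45g had an adjusted p of 0.0599 (limma). Egr1 had a slope of 0.16 (-0.06 to 0.38).

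Choroid plexus markers also had positive slopes in these samples, in 6 of 6 genes with a median of 0.70, and in the 14 middle cortex-like samples in 0 of 3 with a median of -1.63. The 8 striatal projection markers were all negative in both sets, at a median of -0.11 in the striatum-like samples and of -0.94 in the middle samples, where 5 of the 8 had an unadjusted p under 0.05. In the striatum-like samples, cortical excitatory markers were positive in 4 of 5 genes at a median of 0.40. Leptomeningeal markers were positive in 6 of 6 at 0.11 and blood transcripts in 5 of 5 at 0.07. Astrocyte, oligodendrocyte, microglia and endothelial lists had medians between -0.05 and -0.02 there. The part of these markers in the slopes was not tested.

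**Figure D3:**
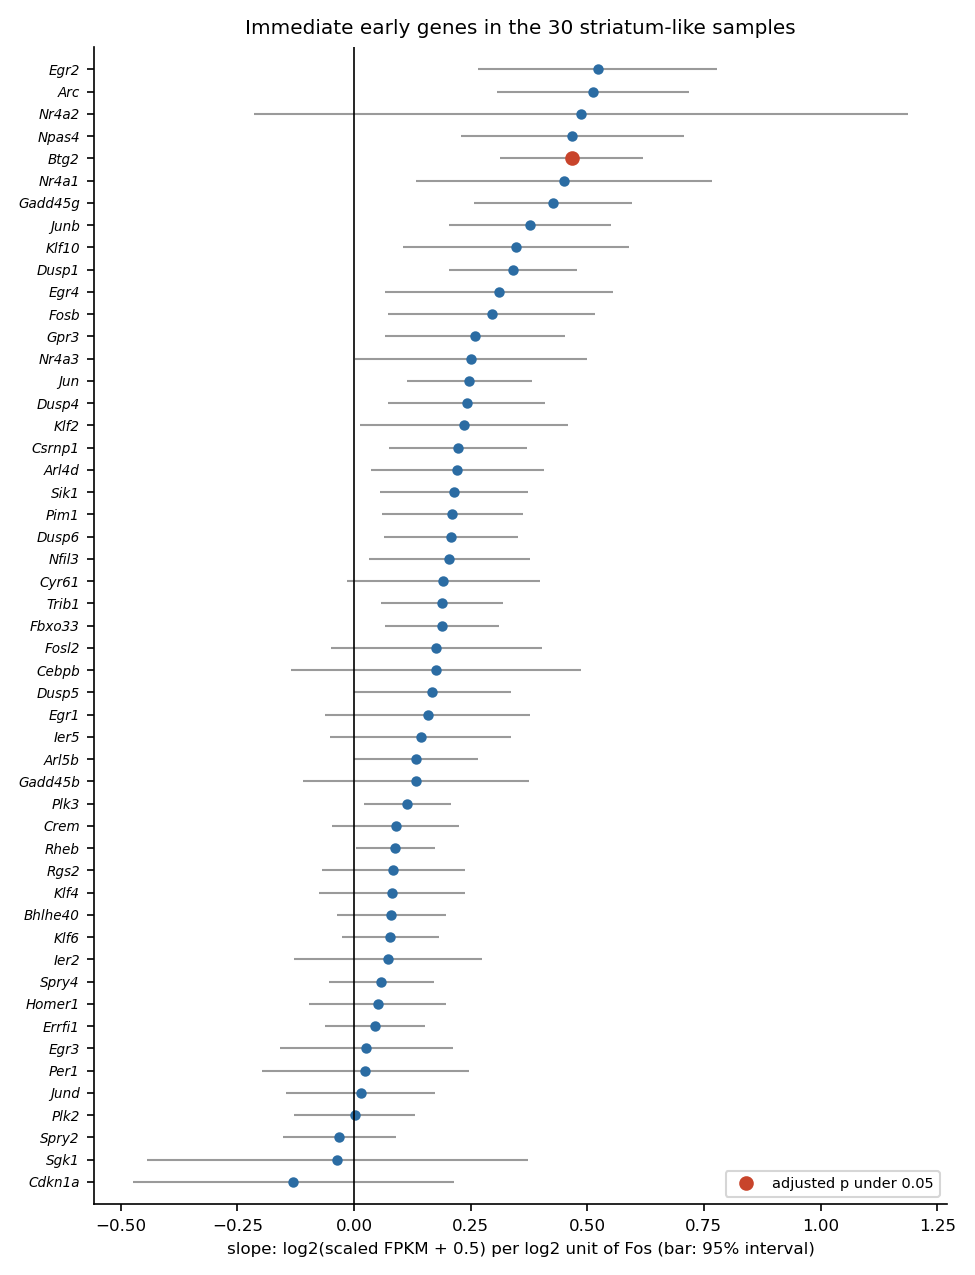
Slope of log2(scaled FPKM + 0.5) on log2 Fos (x axis) with its 95% interval for each of the 51 measured immediate early genes (y axis) in the 30 striatum-like samples. In red is Btg2, at 0.47, and 48 points lie right of 0.

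**Figure D4:**
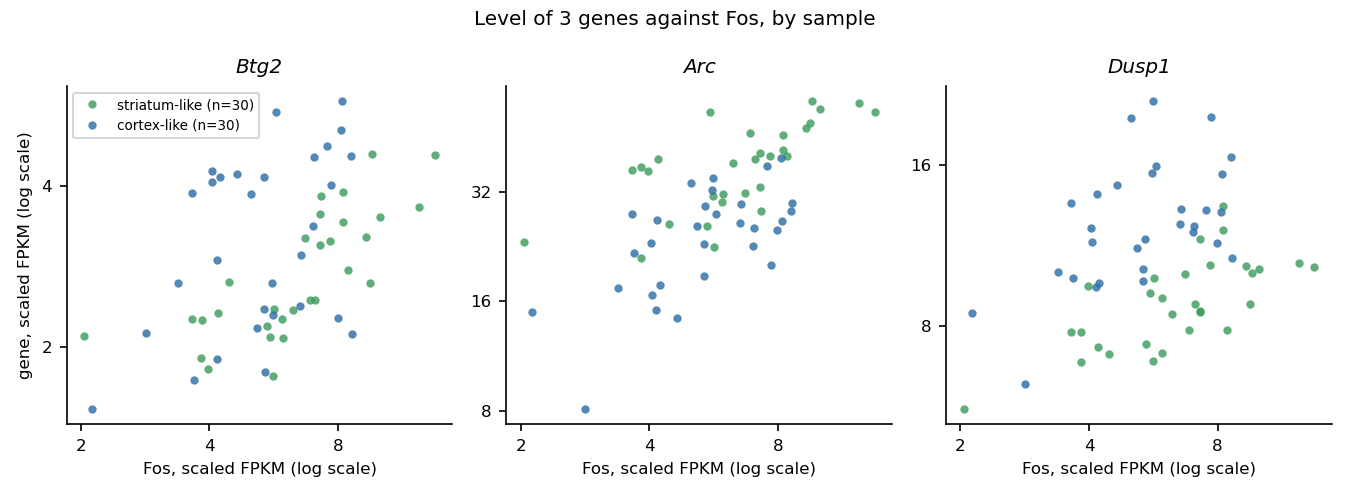
Scaled FPKM of Btg2, Arc and Dusp1 (y axes) against that of Fos (x axis), all on log scales, in the 30 striatum-like and 30 cortex-like samples; each point is a sample. The slopes in the striatum-like samples were 0.47, 0.51 and 0.34, of which that of Btg2 passed the test.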

How the data were processed

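RNA-Seq libraries of total RNA were made after rRNA depletion. Per the submitters' processing notes, bcl2fastq 2.20, Trimmomatic 0.30, TopHat2 2.0.14, SAMtools 1.3 and HTSeq 0.6.1p1 were used with GRCm38.p4. The authors deposited 1 table of FPKM per sample, with no counts, so no count test was made. The 23 of 47597 entries with a status other than OK were left out.

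FPKM were divided by the median ratio to the geometric mean of 13235 genes, and log2(scaled FPKM + 0.5) was used on genes with a mean of at least 0.5 over the samples compared. The members and gene lists were chosen with earlier results of these data known. Genes named are Fos, Egr1, Npas4 and list members, and otherwise genes said to be chosen after their values were seen. A rule for naming further genes that do not overlap gave none. The lists cover immediate early, late response, calcium and kinase, constitutive factor, glucocorticoid, clock, heat shock and cell type marker genes.

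Trends and genotype effects were fitted with limma 3.58.1 in R 4.3.3, with Benjamini-Hochberg adjustment at 0.05, after a test on simulated data. Permutation tests used scipy 1.17.1. Fragments were implied from the tables' confidence bounds, read as 2 counting standard deviations. Depth was taken from single-transcript genes (length from 2000 nucleotides, 20 or more fragments). Implied fragments are not read counts, since Ece1, at a mean of 69.4 scaled FPKM, had a median of 2.63. Errors from them treat the bounds as counting only. One sample whose title names the Δ12 line and whose genotype label names the KO line was assigned to the KO line. Alternatives were another scaling, pseudocount, filter, group size, covariate and threshold, a replicate block, and samples left out. The difference of at least 0.5 and the settings that leave out samples were added after the data were seen.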

Additional observations from a re-analysis of the deposited data

Results flagged for a closer look

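Within each group of 8, the highest or lowest sample was compared with its neighbour by Dixon's criterion for 14 genes, which makes 28 sets of values, and chance flags about 1 in 20 sets. Of these, 3 exceeded the 95% critical ratio for 8 values. Gadd45b was at 32.7 scaled FPKM in the high-Fos sample labelled striatum Δ12-line Δ12/+ female 1, with the next sample at 16.1. Among the low-Fos samples, the one labelled striatum Δ12-line Δ12/Δ12 male 1 held the highest Sik1, at 1.01 against 0.593 in the next, and the highest Klf10, at 20.3 against 15.2.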

How the results depend on the processing

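With FPKM as deposited, 7 of the 8 low-Fos and 7 of the 8 high-Fos samples remained in their groups. Over the scaling, pseudocount, filter and group size alternatives, the median difference of the immediate early transcription factors lay between 0.17 and 0.25 and that of the effectors between 0.03 and 0.13. Leaving out 1 of the 16 samples in turn gave 0.16 to 0.26 for the factors, 0.05 to 0.15 for the effectors, -0.05 to 0.04 for the late response genes and 0.07 to 0.52 for the choroid plexus markers. The effectors' value of 0.03 came from 6 samples against 6. Without the samples that stood apart, genes without overlap numbered 5 higher and 7 lower of 15231, where there had been 0 and 0 with all 8 high-Fos samples.

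In the striatum-like samples, the trend with Fos called 4 genes with FPKM as deposited, 1 with a pseudocount of 0.1, 1 with no filter, 5 at an adjusted p under 0.1 and 1 without the 2 samples farthest in Fos, and 0 to 5 when 1 sample was left out. With the replicate block it called 0 genes, with 907 at an unadjusted p under 0.05 by limma, and the adjusted p of Btg2 was 0.179. Between male Δ12/Δ12 and male +/+, limma called 7 genes with a pseudocount of 1, 3 with no filter and 7 at an adjusted p under 0.1. The replicate block left 0 calls in that comparison, between Δ12/+ and +/+ and in the middle samples. Between Δ12/+ and +/+ and between male Δ12/Δ12 and +/+, same-numbered samples shared only a number, since 0 of 12 and 0 of 6 pairs had deviations that correlated above 0.1, and 3 of 12 and 2 of 6 correlated best with their own number. In the striatum-like samples, 2 of 24 pairs of another genotype or line and 4 of 15 pairs labelled as 1 mouse correlated above 0.1. The middle samples were not checked. The causes were not tested.

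In the middle samples, FPKM as deposited moved the median slope of all genes from 0.01 to 0.24, and that of the immediate early genes from 0.08 to 0.43. The contradicted labels, the FPKM unit without counts and the few implied fragments of low genes limit what can be read from single genes.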
